A study of Mus musculus with 7 samples.

Results

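The cytosolic ribosomal proteins are the protein building blocks of the ribosome outside mitochondria. Their genes were taken by symbol from the deposited expression table, as the Rpl and Rps genes with a numbered name together with Rplp0, Rplp1, Rplp2 and Rpsa. Pseudogenes named as such and the Rps6k kinases were left out. The rule gave 84 of the 34745 genes in the table, 51 of the large subunit and 33 of the small subunit, including paralogs such as Rpl22l1 and Rps27l. They were compared between 4 PIK3CD GOF and 3 WT libraries of splenic naive CD4 T cells, helper T cells that have yet to meet antigen. The GOF mice were heterozygous for a gain-of-function PIK3CD allele, and the labels do not name the allele or a promoter. PIK3CD encodes p110delta, a catalytic subunit of the lipid kinase PI3K found mainly in white blood cells. All mice were male, 8 weeks old and of strain C57BL/6, and the WT mice were littermates. Cells were taken directly from the animal by negative selection, which removes other cells and leaves the wanted ones untouched. The titles number the libraries, and each library was taken to be a separate mouse.

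Each ribosome joins a small subunit, which reads the mRNA, to a large subunit, which makes the peptide bond and holds the exit tunnel for the new chain. Mammalian ribosomal protein mRNAs begin with a 5′ terminal oligopyrimidine (TOP) tract, a stretch of C and T that lets mTORC1, a kinase complex downstream of PI3K, and the RNA-binding protein LARP1 set their translation and stability together. Naive T cells are small and make little protein, and they raise ribosome production when they are activated.

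The start sites are shown because the tract lies there, and they differed in how much of it the annotated start holds. RefSeq (GRCm38.p6) held a promoter for 63 of the 84 genes. The windows run from 30 bases before the annotated start to 20 bases from it, on the gene strand, and capitals mark the longest run of C and T that touches the 11 bases centred on the start. Rpl4 had the highest read level of the family, Rplp2 belongs to the stalk, Rpl22l1 was higher in GOF cells, and Rplp0 and Rpl24 were lower.
Rpl4, chr9:64173357-64173406, plus strand: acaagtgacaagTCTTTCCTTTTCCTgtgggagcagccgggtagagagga
Rplp2, chr7:141447621-141447670, plus strand: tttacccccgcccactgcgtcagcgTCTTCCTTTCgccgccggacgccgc
Rpl22l1, chr3:28805478-28805527, plus strand: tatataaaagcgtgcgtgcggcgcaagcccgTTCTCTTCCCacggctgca
Rplp0, chr5:115559437-115559486, plus strand: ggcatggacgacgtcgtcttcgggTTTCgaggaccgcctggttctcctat
Rpl24, chr16:55966245-55966294, plus strand: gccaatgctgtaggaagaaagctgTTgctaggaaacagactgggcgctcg
The run was 14 bases long in Rpl4, 10 in Rplp2 and 10 in Rpl22l1, against 4 in Rplp0 and 2 in Rpl24. Rpl35a and Rpl37a, also higher in GOF, had runs of 4 and 3 bases. Among other lower genes the run was 21 in Rpl7a, 10 in Rpl18 and 9 in Rps9. It was 6 in Rpl6, 5 in Rps7, 3 in Rpl26 and in Rpl36a, and 1 in Rps3a1. A link between run length and direction was not tested. A run of at least 8 bases was found for 21 of the 63 members (33.3%), and for 9.63% of the 27025 promoters searched. The letters CTTTC, on the gene strand within 20 bases of the start, stood in 28.6% of the members and 5.38% of all promoters. CCGGAAG, the core that ETS factors such as GABP bind, was searched on both strands of the 300 bases and stood in 39.7% of members and 9.12% of all promoters. AAGATGGC, which fits YY1, stood in 7.94% of members and 2.88% of all promoters, and the E-box CACGTG, which Myc can bind, in 7.94% and 7.24%. A match is a description of the letters, and a run depends on the annotated start.

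Some of these genes also have near-identical copies elsewhere in the genome, made when their mRNAs were copied back into DNA, and short reads cannot always be given to the right locus. The next windows of coding sequence are shown because the reads of these genes and of their copies differ by few bases or none. Positions are on mm10, capitals mark the bases at which member and copy differ, and positions in the substitutions count from 1 at the 5′ end of the window, the member's base first.
Rpl12, chr2:32962049-32962108, plus strand: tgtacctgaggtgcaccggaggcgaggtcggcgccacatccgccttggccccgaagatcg
Gm10275, chr10:29699194-29699253, minus strand: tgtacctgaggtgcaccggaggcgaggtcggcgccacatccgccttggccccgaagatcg
Rpl9, chr5:65389551-65389610, minus strand: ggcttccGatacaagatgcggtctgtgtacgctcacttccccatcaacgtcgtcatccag
Rpl9-ps6, chr19:32466234-32466293, minus strand: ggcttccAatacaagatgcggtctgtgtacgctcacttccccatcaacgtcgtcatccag
Rps7, chr12:28635595-28635654, minus strand: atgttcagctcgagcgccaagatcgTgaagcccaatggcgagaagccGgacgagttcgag
Gm6472, chrX:152910061-152910120, minus strand: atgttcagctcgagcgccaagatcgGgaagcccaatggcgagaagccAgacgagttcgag
The windows of Rpl12 and Gm10275 are identical, as were all 495 coding bases. Rpl9-ps6 differed at 1 of 576 coding bases (G8A in the window), an identity of 99.8%. Gm6472 differed from Rps7 at 3 of 582 coding bases, T26G and G48A among them. Of the 50-base stretches of a member's transcript, a median of 45.9% over the 84 members occurred in no other annotated gene. For 48 members the share was under 50%, and it reached 100% in Rpl3l and Rpl39l.

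The 7 libraries held 14497957 to 16293539 counts each. The cells carried the markers of their label: Cd4 averaged 1107 ± 50.7 counts per 1000000 counts (CPM) in GOF and 755 ± 87.0 CPM in WT (SD, n = 4 and 3). Cd8a, the CD8 T cell coreceptor, averaged 5.63 ± 1.16 CPM in GOF and 9.67 ± 4.94 CPM in WT. Of 6 CD4 T cell markers 5 were higher in GOF and of 5 naive markers 3 were lower. Pik3cd itself was 652 ± 129 CPM in GOF and 1136 ± 325 CPM in WT (log2 fold change -0.80, edgeR, adjusted p = 0.0154), and the counts do not show the allele. Markers of other blood cells moved with the genotype. The 8 myeloid markers summed to 137 to 464 CPM in GOF and 41.6 to 79.4 CPM in WT, with 7 of 8 higher. The 6 neutrophil markers summed to 47.9 to 169 CPM in GOF and 0.344 to 5.46 CPM in WT, where Camp and Ly6g were at 0. The 6 B cell markers summed to 74.5 to 147 CPM in GOF and 25.7 to 76.2 CPM in WT, with 3 of 6 higher. The 6 red cell markers summed to 18.2 to 63.5 CPM in GOF and 3.97 to 17.4 CPM in WT, where Car1 was at 0. The 4 NK cell markers summed to 36.9 to 53.7 CPM in GOF and 9.70 to 16.1 CPM in WT, all 4 higher. The part of these cells in the ribosomal results was not tested beyond the fits without GOF replicates 1 and 3, given with the counts. Mitochondrially encoded genes took 6.36% ± 0.432 of counts in GOF and 4.78% ± 0.409 in WT. In bulk samples fewer cells of a type and less RNA per cell cannot be told apart.

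The genes of a complex whose parts are needed in equal numbers had very unequal levels in the table. Per kilobase of the chosen GENCODE transcript the highest means over the 7 libraries were 3727 CPM per kb for Rps15 and 3072 for Rpl32. The lowest tested were 2.30 CPM per kb for Rps4l, 5.14 for Rps23, a decoding-centre protein, and 5.25 for Rpl23a, which docks factors at the exit tunnel. The transcript chosen for Rps4l has no annotated coding sequence. Without length, the mean ran from 2.17 CPM for Rps4l to 3438 CPM for Rpl4, with a median of 326 CPM, and 22 of the 81 tested members were under 50 CPM. The order of the members was nearly the same in every library, with rank correlations between 0.987 and 0.998 over the 81 members. Members with under 20% unique sequence (18 genes) had a median of 73.8 CPM per kb, against 599 CPM per kb for the 26 members with at least 60%. Over all 81 the rank correlation between unique share and level was 0.25, a description across genes that share libraries and family sequence.

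**Figure D1:**
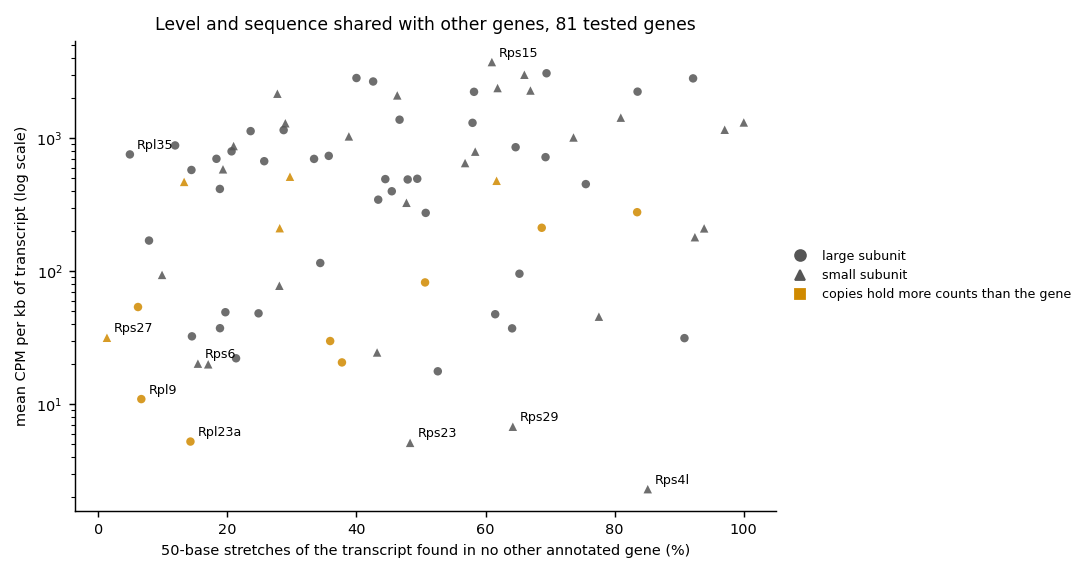
Mean level over the 7 libraries (CPM per kb of transcript, log scale) against the percent of each transcript's 50-base stretches found in no other annotated gene, for 81 tested ribosomal protein genes. Circles are large-subunit and triangles small-subunit genes, and orange marks the 13 genes whose copies held more counts. Genes with little unique sequence reach from the lowest levels, such as Rpl23a at 5.25, to high ones, such as Rpl35 at 755.

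On the deposited FPKM scale, which divides by a length fixed per gene, Rplp1, Rpl8, Rps24 and Rpl13a were among the highest levels. Rplp1, of the stalk, averaged 3018 ± 350 FPKM in GOF and 2632 ± 368 FPKM in WT. Rpl8, which lies close to the peptide-bond centre, averaged 2580 ± 292 FPKM in GOF and 3012 ± 433 FPKM in WT. Rps24 averaged 2603 ± 291 FPKM in GOF and 2897 ± 300 FPKM in WT (SD, n = 4 and 3). Rpl13a, also known for silencing inflammatory mRNAs in myeloid cells, averaged 2948 ± 603 FPKM in GOF and 2429 ± 620 FPKM in WT. None of these 4 genes passed the test (edgeR), and the groups overlapped for all 4. Rpl13a overlaps Flt3l, which had 99.0 ± 6.78 CPM in GOF and 36.7 ± 2.66 CPM in WT, a small amount beside the 2954 ± 608 and 2569 ± 670 CPM of Rpl13a. For 52 members the length behind the FPKM was over 2 times that of the transcript, so levels between genes on this scale are uncertain.

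Most ribosomal protein genes did not pass the test between the genotypes, and those that did moved in both directions. Of 81 tested members 3 rose and 14 fell in GOF cells (edgeR quasi-likelihood, adjusted p under 0.05), which is 20.99% of the members against 31.3% of all 12668 tested genes. By direction, 16.8% of all tested genes were higher and 14.5% lower. The groups did not overlap for 22 members (27.2%), against 39.8% of all tested genes. The median log2 fold change was -0.14 for the members and 0.01 for all tested genes, and 50 members were below 0 and 31 above. Changes were small: the SD of the log2 fold changes was 0.36 among members and 1.16 among all tested genes, and 1 member against 17.6% of genes went beyond 1 in size. The large subunit had 3 genes higher and 8 lower of 48 tested, with a median of -0.14. The small subunit had none higher and 6 lower of 33, with a median of -0.16, and no difference between the subunits was tested.

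**Figure D2:**
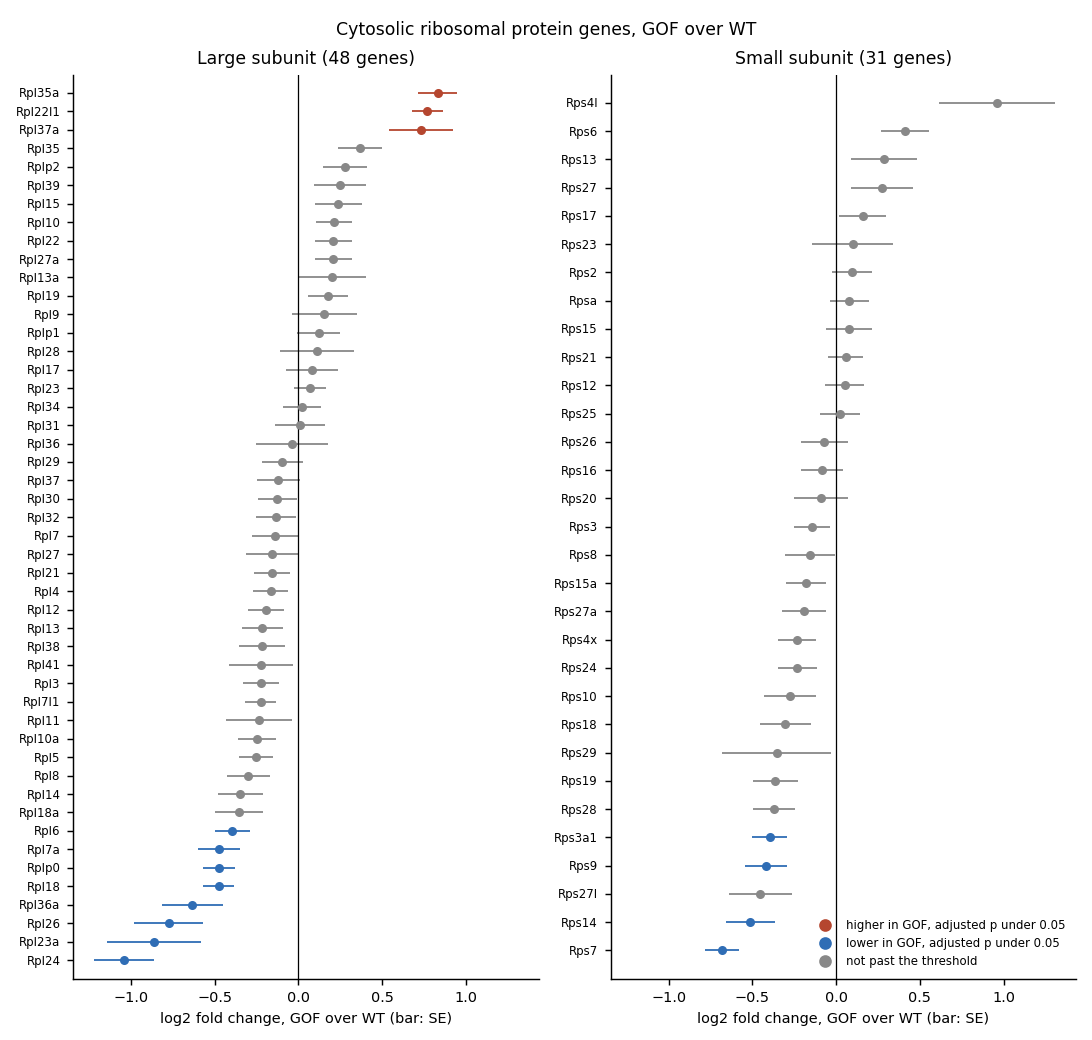
Log2 fold change (GOF over WT) with its standard error for 48 large-subunit genes and 31 of the 33 small-subunit genes that were tested. Red points are the 3 genes higher in GOF, blue points 12 of the 14 lower, and grey points those not past the adjusted p of 0.05. The values run from -1.04 for Rpl24 to 0.96 for Rps4l, which did not pass.

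The 3 genes that rose belong to the large subunit. Rpl35a (ENSMUSG00000060636, mm10 chromosome 16, 33056453 to 33060189), whose human gene is mutated in some patients with Diamond-Blackfan anaemia, stood at 250, 219, 246 and 250 CPM in GOF and 161, 121 and 124 CPM in WT. Every GOF library was above every WT library. Its log2 fold change was 0.83 with a standard error (SE) of 0.12 (edgeR, adjusted p = 0.000837). Rpl22l1 (ENSMUSG00000039221, chromosome 3, 28805436 to 28807424), the paralog that can take the place of Rpl22 in the ribosome, stood at 72.9, 74.7, 79.0 and 82.7 CPM in GOF and 48.1, 43.7 and 44.5 CPM in WT. It rose by 0.77 on the log2 scale (SE 0.09, edgeR, adjusted p = 0.000384), with no overlap. Rpl37a (ENSMUSG00000046330, chromosome 1, 72711260 to 72713809), a zinc-binding protein of the large subunit, stood at 30.4, 26.6, 35.9 and 35.1 CPM in GOF and 24.0, 14.1 and 19.7 CPM in WT. The groups did not overlap, though the closest pair, 26.6 and 24.0 CPM, lay near each other (log2 fold change 0.73, SE 0.19, edgeR, adjusted p = 0.0188). Its call was lost without GOF replicate 4 (adjusted p = 0.0529) and without WT replicate 3 (0.0529).

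Among the 14 lower genes, the largest fall was that of Rpl24 (ENSMUSG00000098274, chromosome 16, 55966275 to 55971435), which reaches across to the small subunit as a bridge and is known from the mouse mutant Belly spot and tail. It stood at 248, 312, 394 and 348 CPM in GOF and 841, 603 and 568 CPM in WT. All GOF libraries were below all WT libraries, and the spread was widest in WT through replicate 1 (log2 fold change -1.04, SE 0.18, edgeR, adjusted p = 0.00251). Rpl24 overlaps Gm28037, an annotated processed transcript that holds 69.4% of the 50-base stretches of Rpl24, with 69.8, 59.6, 65.2 and 68.7 CPM in GOF and 1.29, 21.5 and 111 CPM in WT. Added together, the 2 genes had 391 ± 60.7 CPM in GOF and 715 ± 113 CPM in WT (SD, n = 4 and 3).

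Rpl26 and Rpl23a lie at the rim of the exit tunnel. Rpl26 (chromosome 11, 68901583 to 68906989), also known for promoting p53 translation, stood at 455, 381, 563 and 454 CPM in GOF and 1095, 606 and 677 CPM in WT. WT replicate 1 was far above the other two, and without it the log2 fold change moved to -0.47 (edgeR, adjusted p = 0.0432), against -0.78 with all libraries (SE 0.21, adjusted p = 0.0193). Rpl23a (chromosome 11, 78180932 to 78183584) had few reads, 1.497, 2.36, 2.65 and 2.19 CPM in GOF and 3.45, 4.27 and 4.18 CPM in WT. Its call (log2 fold change -0.86, SE 0.28, edgeR, adjusted p = 0.0440) was lost when any of the 7 libraries was left out, with adjusted p between 0.0532 and 0.110. With its copies added it stood at -0.37 (edgeR, adjusted p = 0.0257).

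Rps7 was the small-subunit gene with the largest fall in its own counts. Its product is needed for early processing of the small subunit and can bind Mdm2. Rps7 (ENSMUSG00000061477, chromosome 12, 28630847 to 28635953) stood at 327, 292, 379 and 339 CPM in GOF and 566, 488 and 553 CPM in WT. The groups did not overlap (log2 fold change -0.68, SE 0.10, edgeR, adjusted p = 0.00132). However, 81.3% of the summed counts of Rps7 and its copies lay on the copies, and with these added the log2 fold change was -0.25 and no longer passed (edgeR, adjusted p = 0.121).

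Rpl36a and Rpl18, of the large subunit, were also among the genes with the largest non-overlapping falls, as was Rplp0. Rpl36a (chromosome X, 134585654 to 134588062) stood at 14.6, 9.71, 13.5 and 12.8 CPM in GOF and 23.6, 18.6 and 16.9 CPM in WT. Its log2 fold change of -0.64 (SE 0.18, edgeR, adjusted p = 0.0269) was no longer past the threshold without GOF replicate 3 (0.0516), GOF replicate 4 (0.0582) or WT replicate 1 (0.0854). Rpl18 (chromosome 7, 45715457 to 45720835) stood at 376, 391, 403 and 390 CPM in GOF and 588, 470 and 571 CPM in WT, and the GOF libraries hardly differed from each other. It fell by 0.48 on the log2 scale (SE 0.09, edgeR, adjusted p = 0.00452).

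**Figure D3:**
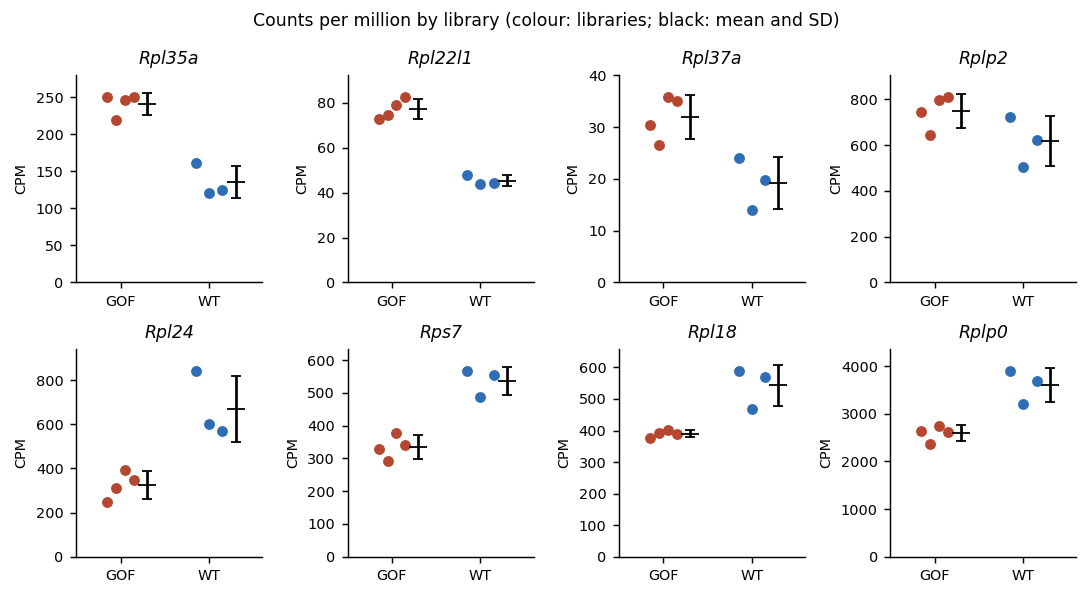
CPM per library for Rpl35a, Rpl22l1, Rpl37a and Rplp2 (upper row) and Rpl24, Rps7, Rpl18 and Rplp0 (lower row), GOF (red, 4 libraries) beside WT (blue, 3 libraries), with the mean and SD in black. The groups are separate for every gene but Rplp2, where 646 CPM in GOF replicate 2 lies below 725 CPM in WT replicate 1.

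Of the acidic stalk of the large subunit, which recruits elongation factors, Rplp0 alone passed the test. Rplp0 (ENSMUSG00000067274, chromosome 5, 115559467 to 115563727), its base, stood at 2635, 2362, 2754 and 2620 CPM in GOF and 3897, 3214 and 3698 CPM in WT. It fell by 0.47 on the log2 scale (SE 0.10, edgeR, adjusted p = 0.00627), with no overlap. Rplp1 and Rplp2 form the dimers that hang from it. Rplp1 stood at 1404, 1241, 1595 and 1607 CPM in GOF and 1546, 1158 and 1330 CPM in WT (log2 fold change 0.12, SE 0.13, edgeR, adjusted p = 0.512). Rplp2 stood at 747, 646, 797 and 812 CPM in GOF and 725, 506 and 624 CPM in WT (log2 fold change 0.28, SE 0.13, edgeR, adjusted p = 0.142). Without WT replicate 1, Rplp2 passed the test at 0.41 (edgeR, adjusted p = 0.0493), and it was called in 3 of 23 alternative fits. Rpsa, a small-subunit protein once described as a laminin receptor, stood at 3596, 2940, 3709 and 3456 CPM in GOF and 3638, 2852 and 3232 CPM in WT, nearly the same range (log2 fold change 0.08, SE 0.12, edgeR, adjusted p = 0.643).

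In their own counts, paralogs differed from their parent genes in level. Rpl22l1 rose while Rpl22, its parent, had 190, 252, 238 and 229 CPM in GOF and 213, 177 and 200 CPM in WT (log2 fold change 0.21, edgeR, adjusted p = 0.191), and the difference between the pair was not tested. Rps27l, a p53 target, had 20.2, 15.2, 22.6 and 20.5 CPM in GOF and 31.9, 20.5 and 28.2 CPM in WT, overlapping by GOF replicate 3 and WT replicate 2 (log2 fold change -0.45, edgeR, adjusted p = 0.0964). Without WT replicate 2 it passed at -0.62 (edgeR, adjusted p = 0.0296), and it was called in 2 of 23 alternative fits. Rps27, its parent by name, had 11.8 ± 0.524 CPM in GOF and 9.75 ± 2.44 CPM in WT. However, 99.4% of the summed counts of Rps27 and its copy Rps27rt lay on the copy, so these 2 levels cannot be ranked. Rpl7l1 had 77.3, 75.7, 75.1 and 77.3 CPM in GOF and 99.9, 80.4 and 87.7 CPM in WT, without overlap but short of the threshold (log2 fold change -0.23, edgeR, adjusted p = 0.101). Without WT replicate 2 it passed at -0.30 (edgeR, adjusted p = 0.0410), the 1 call in 23 alternative fits. Rpl7 had 1534 ± 214 CPM in GOF and 1688 ± 247 CPM in WT. The GENCODE transcript chosen for Rps4l has no annotated coding sequence, and its locus overlaps the coding gene Tmtc1. Rps4l had 2.99, 2.30, 3.25 and 2.44 CPM in GOF and 1.87, 0.895 and 1.46 CPM in WT, without overlap, and its log2 fold change of 0.96 had an SE of 0.35 (edgeR, adjusted p = 0.0640). Without WT replicate 1 it passed at 1.21 (edgeR, adjusted p = 0.0470), and it was called in 6 of 22 alternative fits. Rps4x, the X-linked parent, had 1956 ± 204 CPM in GOF and 2296 ± 259 CPM in WT.

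The other 3 paralogs had too few counts to be tested. Rpl39l, known in mouse from male germ cells, had 5, 25, 3 and 30 counts in GOF and 8, 5 and 0 counts in WT. Rpl3l, a muscle paralog, had 1 count, in GOF replicate 1, and Rpl10l, known from mouse testis, had 0 counts in every library. With 0 counts, up to 3 counts per library remain possible, for counting error only. Their parents were well measured. Rpl39 had 182 ± 26.5 CPM in GOF and 153 ± 31.3 CPM in WT, Rpl3 had 726 ± 39.8 CPM in GOF and 849 ± 124 CPM in WT, and Rpl10 had 144 ± 12.8 CPM in GOF and 125 ± 13.7 CPM in WT (SD, n = 4 and 3), none past the threshold. Without WT replicate 2, Rpl3 passed at -0.32 (edgeR, adjusted p = 0.0389), and it was called in 2 of 23 alternative fits.

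A further 5 lower genes had log2 fold changes between -0.51 and -0.39 and adjusted p between 0.0190 and 0.0310 (edgeR). Rps14, lost in the human 5q deletion syndrome, had 1200 ± 147 CPM in GOF and 1713 ± 331 CPM in WT, and was the lower gene whose groups overlapped. Rps9, which binds the small-subunit rRNA, had 1494 ± 143 CPM in GOF and 2000 ± 325 CPM in WT. Rps3a1 had 1113 ± 110 CPM in GOF and 1464 ± 135 CPM in WT. Rpl7a had 325 ± 34.4 CPM in GOF and 452 ± 73.2 CPM in WT, and Rpl6 823 ± 78.1 CPM in GOF and 1083 ± 118 CPM in WT (SD, n = 4 and 3). These calls were less firm: of the 7 fits that leave out a library, Rps14 and Rps9 were called in 2 each, and Rpl6, Rpl7a and Rps3a1 in 5 each. All 5 lost their call without WT replicate 1. Rps14 and Rps9 also lost it without GOF replicate 1, 2 or 4 or WT replicate 3, with adjusted p up to 0.0945 for Rps14 and 0.0910 for Rps9. Rpl6 lost it without GOF replicate 1 (adjusted p up to 0.0629), Rpl7a without GOF replicate 4 (up to 0.0585) and Rps3a1 without WT replicate 3 (up to 0.0586). Rpl18, Rpl22l1, Rpl24, Rpl26, Rpl35a, Rplp0 and Rps7 were called in all 7.

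By place in the ribosome, in groups drawn up after the values were known, no group had all its members called. Of the 7 proteins at the tunnel rim 2 fell, namely Rpl23a and Rpl26, and the median log2 fold change was 0.08. Of 5 bridge proteins Rpl24 fell, with a median of -0.16. Rpl5 and Rpl11, which carry the 5S rRNA and can bind Mdm2, stood at -0.25 and -0.24 on the log2 scale (edgeR, adjusted p = 0.0930 and 0.395). Of 4 proteins at the mRNA entry and the head none passed. Of 11 genes mutated in human Diamond-Blackfan anaemia 1 rose, Rpl35a, and 2 fell, Rps7 and Rpl26, with a median of -0.25. In either direction, the share called was 28.6% at the tunnel rim and 27.3% for the disease genes, against 31.3% of all tested genes. The calls at the tunnel rim were all falls, and 14.5% of all tested genes were lower. Rps19, the gene most often mutated in that disease, had 448 ± 51.3 CPM in GOF and 576 ± 101 CPM in WT (edgeR, adjusted p = 0.0680). Rps6, the substrate of the S6 kinases, had 17.8, 22.2, 18.8 and 20.6 CPM in GOF and 14.6, 16.9 and 13.3 CPM in WT, without overlap (log2 fold change 0.41, SE 0.14, edgeR, adjusted p = 0.0563), with only 15.4% of its sequence unique.

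The whole family varied from library to library within a genotype. Ribosomal protein genes took 5.31%, 4.53%, 5.78% and 5.39% of counts in GOF and 6.39%, 4.89% and 5.68% in WT, which is 5.25% ± 0.524 and 5.65% ± 0.748 (SD, n = 4 and 3). The ranges overlapped, and the difference of -0.40 percentage points was smaller than the SD within either group. WT replicate 1 was the highest WT library for 75 of the 81 tested genes and WT replicate 2 the lowest for 70. In GOF, replicate 3 was the highest for 49 and replicate 2 the lowest for 63. Without WT replicate 1 the difference in share was -0.03 percentage points, without GOF replicate 2 it was -0.16, and without WT replicate 2 it was -0.78. The median log2 fold change over the members was -0.03, -0.08 and -0.23 in these 3 fits. Counting each gene against the others of the family, with library factors taken from the members themselves (an alternative chosen after seeing the data), 10 members were higher and 12 lower, against 17.4% higher and 6.66% lower of all genes, 15 of the 17 calls were shared, and the median of all genes moved by 0.13. Rplp1, Rplp2, Rpl35, Rpl10, Rpl19, Rpl39 and Rps4l were then also called higher, and Rpl23a and Rpl36a were no longer called.

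**Figure D4:**
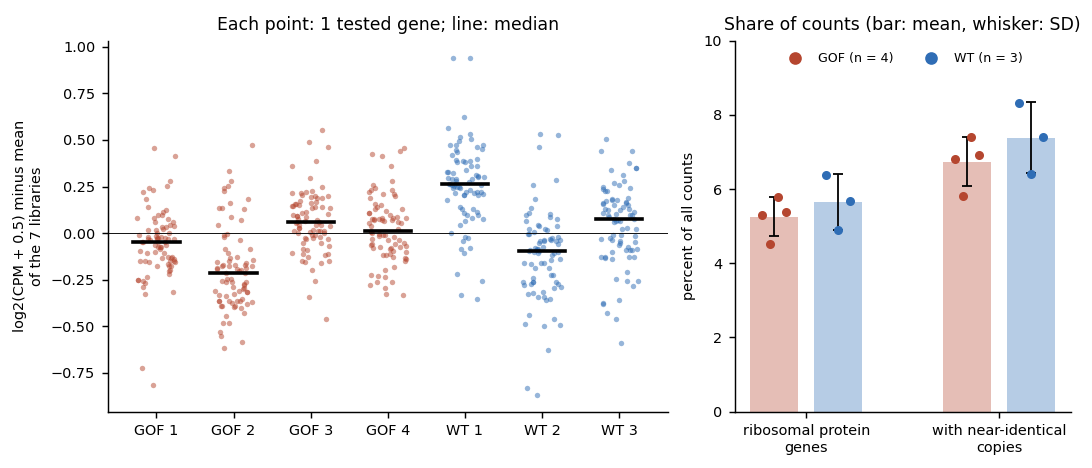
Left, log2(CPM + 0.5) of each of 81 tested genes in each library minus its mean over the 7 libraries, with medians as lines. Right, percent of all counts in the ribosomal protein genes, and with their near-identical copies, as mean and SD with libraries as points, GOF (n = 4) beside WT (n = 3). The points of a library shift together, WT 1 upwards and GOF 2 downwards.

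Much of the family's signal was counted on near-identical copies. By a rule set after seeing the data (at least 30% of the copy's 50-base stretches occur in the member), 38 entries of the table were copies of 29 members. Of these 36 had counts, and together they held 1.49% ± 0.143 of all counts in GOF and 1.73% ± 0.206 in WT. For 13 members the copies held more counts than the gene. For Rps27, a zinc-finger protein of the small subunit, the retrogene Rps27rt had 1709 ± 218 CPM in GOF and 1776 ± 284 CPM in WT, beside about 10.9 CPM on Rps27 itself. For Rpl23a, the copy Rpl23a-ps3 had 622 ± 64.7 CPM in GOF and 805 ± 76.0 CPM in WT, beside 2.94 CPM on the gene. Rpl5 had 110 CPM, and its copy Gm15500 2836 ± 236 CPM in GOF and 3294 ± 341 CPM in WT.

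Of the copies whose sequence is shown above, those of Rpl12 and Rpl9 fell and that of Rps7 did not pass the test. Gm10275, the copy of the stalk-base protein gene Rpl12, stood at 1457, 1150, 1485 and 1475 CPM in GOF and 3069, 2413 and 2714 CPM in WT, with no overlap (log2 fold change -0.97, SE 0.12, edgeR, adjusted p = 0.000467). Rpl12 itself had 96.4 ± 6.21 CPM in GOF and 110 ± 15.6 CPM in WT (log2 fold change -0.19, edgeR, adjusted p = 0.213). Rpl9-ps6, the copy of Rpl9, stood at 381, 347, 455 and 384 CPM in GOF and 887, 723 and 815 CPM in WT, with no overlap (log2 fold change -1.05, SE 0.11, edgeR, adjusted p = 0.000184). Rpl9 had 8.45 ± 1.55 CPM in GOF and 7.596 ± 0.445 CPM in WT. Gm6472, a copy of Rps7, had 1267 ± 125 CPM in GOF and 1383 ± 174 CPM in WT and did not pass (log2 fold change -0.13, edgeR, adjusted p = 0.438). Gm15421, the copy of Rpl22l1, averaged 28.7 CPM in GOF and 14.98 CPM in WT and rose with its gene (log2 fold change 0.94, edgeR, adjusted p = 0.00220). Gm8730, the copy of Rplp0, fell with its gene, at 1228 ± 87.3 CPM in GOF and 1721 ± 151 CPM in WT (log2 fold change -0.49, edgeR, adjusted p = 0.00459). Of 29 copies that were tested 2 were higher (6.90%) and 7 lower (24.1%), against 16.8% and 14.5% of all tested genes. Their median log2 fold change was -0.21. The 31.0% called in either direction is close to the 31.3% of all tested genes.

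With the counts of each member and its copies added together, 3 members were higher and 15 lower, against 16.8% higher and 14.5% lower of all genes, and 15 of the 17 calls were shared. Rpl9 (log2 fold change -1.03, edgeR, adjusted p = 0.000180), Rpl12 (-0.93, 0.000536) and Rpl11 (-0.30, 0.0303) were called only in the sums. Rps7 and Rpl6 (-0.30, 0.0651) were not called in the sums. Rplp0 was at -0.48 (0.00650) and Rpl22l1 at 0.81 (0.000372). With copies, the family took 6.74% ± 0.667 of counts in GOF and 7.38% ± 0.954 in WT.

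**Figure D5:**
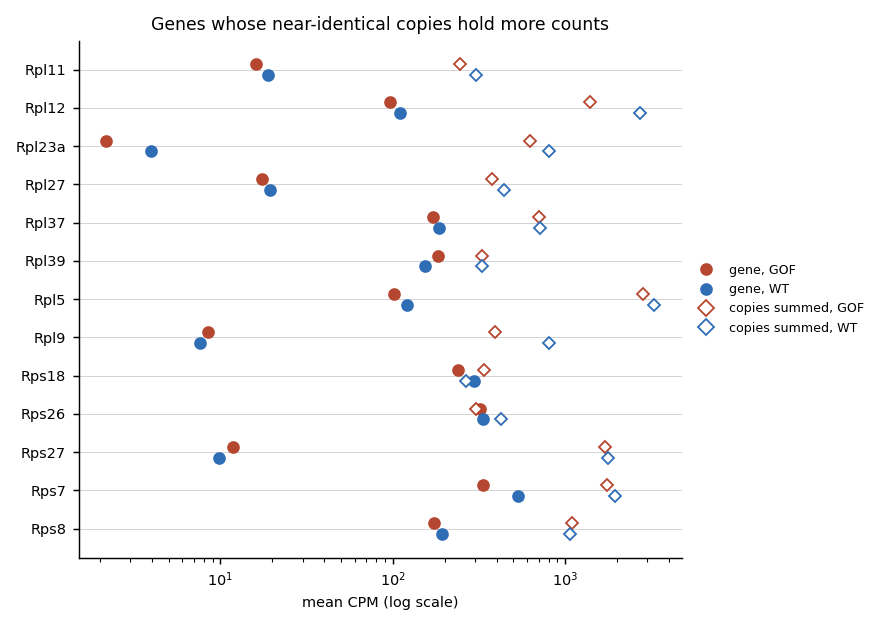
Mean CPM (log scale) of the 13 genes whose near-identical copies held more counts than the gene (filled circles) and of the copies summed (open diamonds), GOF in red above WT in blue. The copies of Rpl12 and Rpl9 lie lower in GOF, by -0.97 and -1.05 on the log2 scale for Gm10275 and Rpl9-ps6, while the genes themselves lie close together.

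Other mRNAs with a TOP tract, mostly those of translation factors, were followed as a list of 22 genes. Of these 12 were lower (54.5%) and 1 higher (4.55%) by edgeR, against 14.5% and 16.8% of all tested genes. The median log2 fold change was -0.38, against 0.01 over all genes. Eef2, which moves the ribosome along the mRNA, averaged 4674 ± 249 CPM in GOF and 7367 ± 435 CPM in WT (log2 fold change -0.66, edgeR, adjusted p = 0.000773). Eef1a1, which delivers tRNAs, averaged 10860 ± 846 CPM in GOF and 15440 ± 910 CPM in WT (-0.51, 0.00537). Nap1l1 (-0.76, 0.000261), Npm1, a nucleolar chaperone of ribosome assembly (-0.73, 0.000509), Eif4b (-0.54, 0.000665) and Eif3e (-0.48, 0.00157) fell as well. The cytosolic ribosomal proteins thus had a median of -0.14 beside -0.38 in these genes, a difference that was not tested. Among 15 genes that control TOP mRNAs 8 were lower (53.3%) and 1 higher (6.67%). Larp1, which binds the TOP tract, averaged 261 ± 13.2 CPM in GOF and 425 ± 46.5 CPM in WT (-0.71, 0.000563). Myc, a transcription factor for ribosome production, averaged 86.4 ± 10.1 CPM in GOF and 222 ± 42.9 CPM in WT (-1.36, 0.000178). The translation repressors Eif4ebp1 (-1.19, 0.00290) and Eif4ebp2 (-0.54, 0.00419), and Larp4 (-0.40, 0.0115), fell, and the S6 kinase Rps6kb2 rose (0.61, 0.00232). Of 6 transcription factors known at ribosomal protein promoters 1 fell, Yy1 (-0.34, 0.0230), a share of 16.7% beside the 14.5% of all genes. Of 14 genes of ribosome assembly and surveillance 1 was higher and none lower. Of 74 mitochondrial ribosomal protein genes 9 were higher and none lower, with a median of 0.07, and the 12.2% higher is below the 16.8% of all genes.

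The calls depended on the scaling and on single libraries. With column totals and no TMM factors 6 members were higher and 10 lower, against 19.9% and 11.3% of all genes. With upper-quartile factors 5 were higher and 6 lower, against 19.7% and 11.4%. With offsets for length and GC content 6 were higher and 33 lower, against 19.2% and 16.0%, all 17 calls were kept, and the median was -0.22. Without WT replicate 1 the split was 7 higher and 6 lower, against 15.3% and 13.1%. Without GOF replicate 1 it was 3 and 9 (13.0% and 11.1%), without GOF replicate 4 it was 2 and 8 (14.0% and 12.1%), and without WT replicate 3 it was 2 and 9 (12.8% and 10.8%). Without GOF replicates 1 and 3, where markers of other cells were highest, 2 were higher and 9 lower, against 8.53% and 8.34% of all genes. When GOF replicates 2 and 4 were left out, 3 were higher and 4 lower, against 13.6% and 10.5%. Rpl35a and Rpl22l1 among the higher genes and Rpl24 and Rpl18 among the lower were called in all 23 alternative fits.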

How the data were processed

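RNA sequencing of naive CD4 T cells gave 4 GOF and 3 WT libraries, grouped by their titles. The authors deposited raw counts and FPKM per gene, and the submitters' processing notes name HISAT2 2.0.4, Cufflinks 2.1.1, Cuffdiff and mm10. For the counting rule, the strand setting and reads that map to several places, nothing was given in the sources used. The deposited counts were tested over the whole table with edgeR 4.0.16 in R 4.3.3 (filterByExpr, TMM, quasi-likelihood F test, all 7 libraries in a 2-group model), with Benjamini-Hochberg adjustment over 12668 genes and a threshold of 0.05. The fit was tested on simulated counts. CPM are per 1000000 TMM-scaled counts. Alternatives used DESeq2 1.42.0, limma 3.58.1 on log2(FPKM + 1) and log2(FPKM + 0.1), other factors, filters and libraries. Sequence shared with other genes was counted in 50-base stretches of GENCODE M21 transcripts. The members and lists were chosen with earlier results of these data known. Named members are paralogs with parents, up to 8 of the largest called non-overlapping changes in each direction, the 5 highest by FPKM, the stalk genes with Rpsa and those not tested. From the 2 lists of other TOP genes and regulators up to 6 called genes each by smallest p are named. Other members, the copies, Yy1, Rps6, Rps19, Rpl5 and Rpl11 were named after their values were seen. A few genes that these rules would name are not reported here. The p-values measure the spread between libraries, each taken as a separate mouse. No 2 libraries of the same genotype agreed within sampling noise, and pairs across genotypes were not compared.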

Additional observations from a re-analysis of the deposited data

Results flagged for a closer look

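In 31 sets of 4 GOF values examined for a library far from the others (28 named members and 3 shares of counts), 1 stood out, where chance gives about 1 in 20. Rpl35a had 219 CPM in GOF replicate 2, against 246 to 250 CPM in the other 3 GOF libraries, and the gap was 0.847 of the group's range. All 4 values were above the 121 to 161 CPM of the WT libraries.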

How the results depend on the processing

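Of 82 values under alternatives for the counts of calls, the median and the share, 65 were labelled unchanged and 17 moved. Counts were labelled by their ratio to the main count. The median and the share were labelled unchanged within the pooled SD of the libraries, 0.149 on the log2 scale and 0.623 percentage points. These margins exceed the main values of -0.14 and -0.40, so a median or share near 0 also counted as unchanged. The number of higher members, 3, was 5 with DESeq2, with upper-quartile factors and with a mean FPKM of at least 5, and 6 without TMM factors, in limma on either FPKM scale and with length and GC offsets. It was 10 with library factors from the members. Of all genes, 35.1% were called in either direction with DESeq2 and 33.25% with the FPKM filter. In limma 31.5% and 32.0% were called, against 31.3% in the main fit. The number of lower members, 14, was 6 with upper-quartile factors, 33 with length and GC offsets, 9 without GOF replicates 1 and 3 and 4 without GOF replicates 2 and 4. Leaving out 1 library gave 2 to 7 higher and 6 to 21 lower members, with 23.6% to 30.5% of all genes called in either direction. The cause of these moves was not tested, except that fewer samples entered the fits without libraries. The median stayed below 0 in all 23 alternatives, from -0.23 to -0.01. The value of -0.01 came with library factors from the members, which set the median near 0 by construction. Without WT replicate 1 the median was -0.03. Of 641 values for 28 named members 581 kept direction and side of the threshold, 34 lost and 21 gained a call. Among uncalled members the sign turned for Rps27 with copies added (-0.053 by either copy rule), Rpl13a without GOF replicates 1 and 3 (-0.0012), and Rpsa without WT replicate 2 (-0.0076) or GOF replicates 1 and 3 (-0.029), while Rpsa ranged up to 0.17 without WT replicate 1. The replicate block gave 4 higher and 14 lower members and kept 16 of the 17 calls, with 25.2% of all genes called in either direction. The correlations of same-numbered libraries were 0.03, 0.15 and -0.04, and those of differently numbered ones ran from -0.18 to 0.13. With so few libraries these values cannot settle whether the numbers pair the libraries. Depth limits Rpl23a, Rps4l, Rps29 and Rps23, all under 5 CPM. Shared sequence limits the members whose copies held counts.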
